A study of Mus musculus with 8 samples.

Results

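Interferon response genes were followed in RNA-seq of hematopoietic stem cells (HSCs) from mice with and without hemolytic anemia. A list of 48 genes was taken, and a gene was a member if its symbol stood in the expression tables of all 3 groups. All 48 were there, among the 15142 genes that the tables share, and all 48 passed the filter on low values that left 11347 genes to test. Irf8 passed it only through the PHZ SP libraries (2.41 and 1.05 FPKM, against 0.397 to 0.933 FPKM in marrow), so it was tested because it is high there. Its place in the counts of members higher in spleen is a description. The same holds for its place in the spleen medians of all members and of the signalling genes. The list holds 4 receptor genes, 6 signalling genes, 30 genes best known as induced by type I interferon and 8 best known as induced by type II interferon. Many of the induced genes respond to both types, so the classes name the better known inducer and not an exclusive one.

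The HSCs came from wild-type C57BL/6 mice, which the study's methods give as 8 to 12 weeks old. Phenylhydrazine (PHZ), a compound that destroys red blood cells, was injected at 60 mg/kg on 2 days, and HSCs were sorted 3 days later. Those taken from marrow are called PHZ BM HSC (3 libraries) and those taken from spleen PHZ SP HSC (2 libraries). Mice given PBS provided the control marrow HSCs (control BM HSC, 3 libraries). Splenic HSCs of mice without PHZ were not analysed here, so PHZ SP HSC differ from control BM HSC in both tissue and treatment, which cannot be told apart in that comparison.

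Interferons are secreted proteins that cells release on infection and tissue stress. Type I interferons bind a receptor made of IFNAR1 and IFNAR2 and act through the interferon-stimulated response element (ISRE) in promoters, which a complex holding STAT2 and IRF9 binds, while type II interferon (interferon gamma) binds IFNGR1 and IFNGR2 and acts through the gamma-activated site (GAS). Both types are known to push quiescent HSCs into division, and long exposure is known to exhaust them.

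Promoter sequence is shown first for 7 members. These are Gbp3, 1 of the 2 members past the threshold in any comparison, Igtp, Gbp2, Gbp7 and Irgm1, which like it code for GTPases that act against pathogens inside cells, and Isg15 and Ifit1, 2 classical type I genes. The other member past the threshold, Iigp1, was not among the promoter windows matched. Each line gives 60 bases upstream of the gene's start site, read along the gene's own strand from RefSeq (build GRCm38.p6), with the ISRE core in capitals. The core was written as GAAA, 2 bases of any kind and GAAA again, and was searched on both strands, so a capital run may hold overlapping cores or stand in its reverse form.
Gbp3 (chr3:142559980-142560039, plus strand): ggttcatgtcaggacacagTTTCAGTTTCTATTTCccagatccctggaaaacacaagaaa
Igtp (chr11:58199496-58199555, plus strand): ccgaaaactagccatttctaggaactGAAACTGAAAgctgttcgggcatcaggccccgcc
Gbp2 (chr3:142620579-142620638, plus strand): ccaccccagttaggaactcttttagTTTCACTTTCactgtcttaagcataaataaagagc
Gbp7 (chr3:142530258-142530317, plus strand): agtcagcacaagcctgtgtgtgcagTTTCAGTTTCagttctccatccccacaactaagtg
Irgm1 (chr11:48871421-48871480, minus strand): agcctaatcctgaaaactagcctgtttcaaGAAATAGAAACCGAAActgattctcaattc
Isg15 (chr4:156200850-156200909, minus strand): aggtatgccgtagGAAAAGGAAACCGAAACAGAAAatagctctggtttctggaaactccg
Ifit1 (chr19:34640779-34640838, plus strand): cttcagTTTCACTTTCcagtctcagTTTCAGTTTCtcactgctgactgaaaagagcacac

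RefSeq promoter windows of 300 bases, from 250 before the start site to 50 after it, were matched by symbol for 40 of the 48 members. The ISRE core stood in 19 of these 40 windows (47.5%), against 3.85% of the 9108 matched windows of all genes tested and 3.99% of all 27025 windows of the table. By class it was in 0 of 4 receptor windows, 2 of 6 signalling windows, 12 of 23 type I induced windows and 5 of 7 type II induced windows. The GAS pattern TTCNNNGAA was in 16 of 40 windows (40.0%), against 8.23% of all genes tested and 9.55% of all windows. A match describes the letters of the window and no bound site.

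The libraries held 8221466 to 13210552 reads worked back from the deposited values, of which the ribosomal RNA precursor Rn45s took 43.3% to 48.5%. A member had between 6 reads (Mx2) and 20656 reads (Ifitm1) in a library, and 2 members (Ifit3 and Mx2) had under 10 reads in at least 1 library. Libraries of a group correlated with r between 0.903 and 0.976 across the genes tested, which are not independent replicates. The labels do not say whether the libraries of a group came from separate mice, so p-values measure the spread between these libraries, which may be technical. Markers of HSCs such as Kit and Procr were present in every library, and the summed level of the 10 HSC markers was 411 to 549 FPKM in control BM HSC, 457 to 555 FPKM in PHZ BM HSC and 504 to 526 FPKM in PHZ SP HSC. Markers of other cells were not equal between the groups. The 7 neutrophil genes summed to 318 to 655 FPKM in control BM HSC, 335 to 842 FPKM in PHZ BM HSC and 1299 to 1659 FPKM in PHZ SP HSC, and the 5 erythroid genes in the tables summed to 115 to 279, 172 to 328 and 909 to 1128 FPKM. The macrophage and monocyte genes summed to 252 to 286, 202 to 260 and 350 to 352 FPKM. Of these 8 genes, Csf1r and Adgre1 stayed under 1 FPKM in every library and Lyz2 was at 181 to 310 FPKM. Cd68 was at 34.4 and 57.6 FPKM in PHZ SP HSC against 0 to 16.7 FPKM in marrow (limma adjusted p = 0.0582 over control). C1qb went the other way, at 0.0822 and 0 FPKM in PHZ SP HSC against 0.188 to 3.52 FPKM in marrow. C1qa, Vcam1 and Ly6c2 overlapped between spleen and marrow. The 4 megakaryocyte genes summed to 113 to 131, 80.7 to 100 and 85.3 to 138 FPKM, the 6 B cell genes to 27.6 to 51.4, 28.4 to 30.8 and 42.7 to 53.5 FPKM, and the 6 dendritic cell genes to 2.49 to 5.86, 6.75 to 10.9 and 7.14 to 7.36 FPKM.

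Levels are given as FPKM, fragments for each kilobase of a gene after scaling for depth, and can be compared between genes. The members spanned a wide range of levels. The highest were 3 type I induced membrane proteins that block the entry of viruses, Ifitm1, Ifitm3 and Ifitm2, with means over the 8 libraries of 733, 726 and 359 FPKM. The lowest were Irf8, a transcription factor of the myeloid lineage, at 0.973 FPKM and Mx2 at 1.37 FPKM, the latter annotated as a transcribed pseudogene in the reference. The median member stood at 8.48 FPKM, against 5.0 FPKM for the median gene tested. Median levels by class were 12.5 FPKM for the receptors, 8.99 FPKM for the signalling genes, 7.29 FPKM for the type I induced genes and 22.5 FPKM for the type II induced genes. The genes of the interferons themselves were not analysed here.

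**Figure D1:**
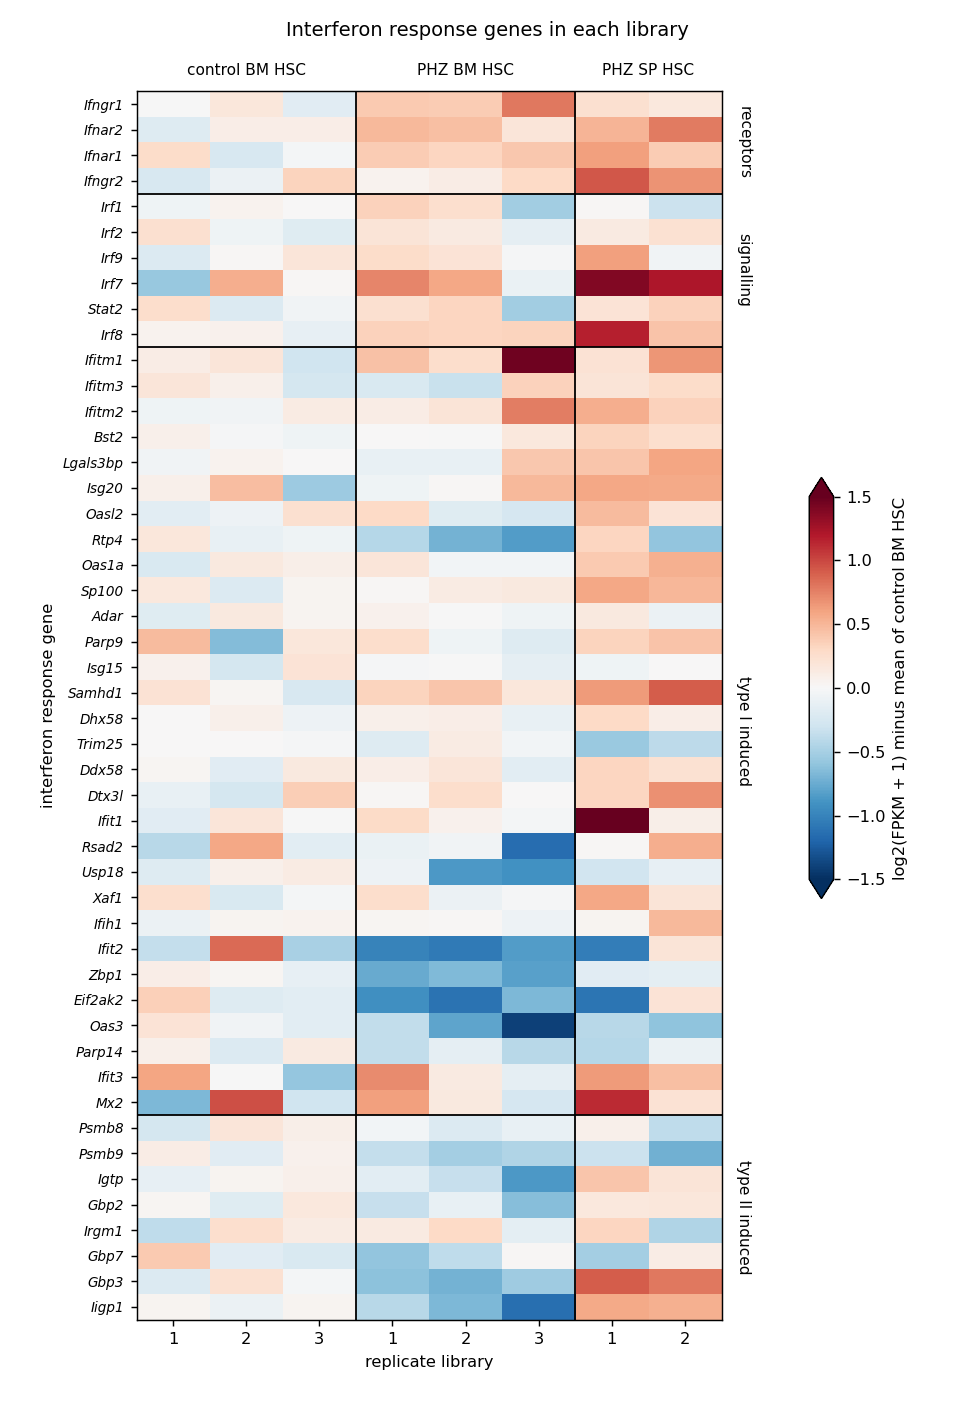
Heat map of log2(FPKM + 1) minus the mean of the 3 control BM HSC libraries, with the 48 genes as rows by class and the 8 libraries as columns by group. Red is higher and blue lower than control, and the color scale ends at 1.5 in either direction. The type II induced rows Gbp3, Iigp1 and Igtp are blue in PHZ BM HSC and red in PHZ SP HSC, and Ifitm1 is highest in PHZ BM HSC replicate 3.

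The first comparison asked how the interferon genes of marrow HSCs differ after PHZ. In PHZ BM HSC relative to control, 0 of the 48 members passed an adjusted p of 0.05 by limma, the test used throughout, where 2.74% of all genes tested did. By sign, 26 members were higher and 22 lower, and the median log2 fold change was 0.02 against 0.01 over all genes tested. At an unadjusted p under 0.05, 2 members were higher and 10 lower, where 9.05% of all genes were higher and 7.57% lower by the same rule. Every PHZ BM library stood above every control library for 5 members and below for 9, against 12.3% and 11.7% of all genes. With each library scaled to the same sum of FPKM apart from Rn45s, 18 members were higher and 30 lower. Because these are bulk libraries, a lower level may be less RNA per cell or fewer cells that express the gene, and the 2 cannot be told apart.

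The type II induced genes were on the lower side in PHZ BM HSC. Of the 8 members, 7 had a negative log2 fold change, where 51.2% of all genes tested had a positive one. For 4 members every PHZ BM library was below every control library, against 11.7% of all genes, and the class median was -0.40. The type I induced genes split evenly, with 15 higher, 15 lower and a median of 0.01. All 4 receptor genes had positive values, with a median of 0.37. The median of the 6 signalling genes was 0.11, but it was 0.05 when replicate 1 of PHZ BM HSC was left out, 0.29 when replicate 3 was, 0.07 without either PHZ SP library and 0.05 with equal sums of FPKM. The signs of Irf1 and Stat2 (0.02 and 0.01) turned with the setting, and no receptor or signalling gene passed the test.

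Of the 4 megakaryocyte markers, 2 passed the test as lower in the same comparison, where 2.74% of all genes tested passed in either direction. The platelet chemokine Pf4 was at 63.1, 77.8 and 66.4 FPKM in control BM HSC, 32.3, 29.7 and 35.9 FPKM in PHZ BM HSC and 36.1 and 79.7 FPKM in PHZ SP HSC (log2 fold change in marrow -1.06 ± 0.24, adjusted p = 0.0424). Ppbp, another platelet chemokine, was at 8.03, 5.51 and 5.6 FPKM, then 1.5, 3.05 and 0.857 FPKM, then 3.39 and 2.93 FPKM in the same order of groups (-1.46 ± 0.30, adjusted p = 0.0265). Over the 8 fits that each left out 1 library, Pf4 kept its call in 2 (adjusted p up to 0.166) and Ppbp in 3 (up to 0.118). Itga2b and Gp9, the other markers of the list, overlapped between the marrow groups. Itga2b was on the higher side, with a log2 fold change of 0.69, and Gp9 on the lower, at -0.2. The part of these markers in the values of the members was not tested.

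The member with the smallest p was Zbp1, a sensor of unusual nucleic acids that can start cell death. It stood at 5.07, 4.76 and 4.19 FPKM in the control BM libraries, at 2.35, 2.59 and 2.21 FPKM in the PHZ BM libraries and at 4.05 and 4.11 FPKM in the PHZ SP libraries. All 3 PHZ BM libraries were below every other library. The log2 fold change from control was -0.74 ± 0.21 (SE) with an adjusted p of 0.0965, which misses the threshold.

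Iigp1, an immunity-related GTPase, was next in order of p. Its levels were 8.31, 7.48 and 8.29 FPKM in control BM HSC and 5.76, 4.66 and 3.12 FPKM in PHZ BM HSC, with no overlap between the groups. The difference was -0.74 ± 0.23 (adjusted p = 0.117). Gbp3, a guanylate-binding protein, followed with 9.68, 13.4 and 11.0 FPKM in control BM HSC and 7.04, 6.52 and 7.51 FPKM in PHZ BM HSC. These groups did not overlap either, and the log2 fold change was -0.61 ± 0.19 (adjusted p = 0.123).

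Among the 30 type I induced genes, 6 were lower at an unadjusted p under 0.05, against 7.57% of all genes. These were Zbp1 and 5 more. Oas3, which makes the oligoadenylates that switch on RNase L, had a mean of 4.93 FPKM in control BM HSC and 2.41 FPKM in PHZ BM HSC (log2 fold change -0.85 ± 0.28, adjusted p = 0.15). Eif2ak2, the kinase PKR that halts translation on double-stranded RNA, had means of 4.97 and 2.16 FPKM (-0.90 ± 0.33, adjusted p = 0.19). Ifit2, which binds viral RNA, had 6.12 and 2.33 FPKM, and its control mean included 1 library at 10.7 FPKM beside 4.04 and 3.62 FPKM. Rtp4 and Usp18, the latter a brake on the type I receptor, had log2 fold changes of -0.66 and -0.62, and none of the 6 passed the adjusted test.

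On the other side were Ifngr1 and Ifitm1. Ifngr1, the ligand-binding chain of the interferon gamma receptor, measured 36.5, 41.3 and 32.5 FPKM in control BM HSC, 48.2, 47.8 and 63.9 FPKM in PHZ BM HSC and 43.4 and 40.9 FPKM in PHZ SP HSC. All PHZ BM libraries were above all others, at 0.52 ± 0.16 over control on the log2 scale (adjusted p = 0.131). Ifitm1 measured 571, 600 and 431 FPKM in control BM HSC, 717, 636 and 1460 FPKM in PHZ BM HSC and 615 and 836 FPKM in PHZ SP HSC. Replicate 3 was the highest of all 8 libraries, and the log2 fold change of 0.72 ± 0.26 (adjusted p = 0.186) became 0.35 without that library.

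PHZ BM HSC replicate 3 stood apart from its group in several members. It was the lowest of its group for 29 of the 48 members and for 5 of the 6 signalling genes, while over all genes tested it was lowest for 37.7%. Irf1, an early transcription factor of the interferon gamma response, stood at 37.6, 35.0 and 20.1 FPKM in the 3 PHZ BM libraries, against 28.1, 30.5 and 29.5 FPKM in control BM HSC and 29.6 and 23.2 FPKM in PHZ SP HSC. The median of the signalling genes over control was 0.31 and 0.28 in the first 2 PHZ BM libraries and -0.11 in the third. The same library had the highest level of the neutrophil gene S100a8 in its group, at 341 FPKM beside 158 and 144 FPKM. Of the same list, S100a9, Ltf, Camp and Ngp were highest there too. Elane (18.6 FPKM) and Mpo (12.0 FPKM) were highest in replicate 2 instead, and Mpo was lowest in replicate 3, at 0.294 FPKM. The part of these markers in the values of the members was not tested.

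The second comparison set spleen against marrow within PHZ-treated mice. The interferon genes were mostly higher in PHZ SP HSC, where 41 of the 48 members (85.4%) had a positive log2 fold change over PHZ BM HSC, against 48.2% of all genes tested. The median was 0.34 for the members and -0.02 for all genes. Gbp3 and Iigp1 were the 2 members past the threshold, both higher, where 0.978% of all genes passed in either direction and 0.608% passed as higher. At an unadjusted p under 0.05, 8 members were higher and 0 lower, against 7.02% and 6.47% of all genes. All libraries of PHZ SP HSC were above all of PHZ BM HSC for 21 members and below for 2, against 17.4% of all genes as higher and 17.4% as lower. Irf8 is among the 41 and the 21.

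**Figure D2:**
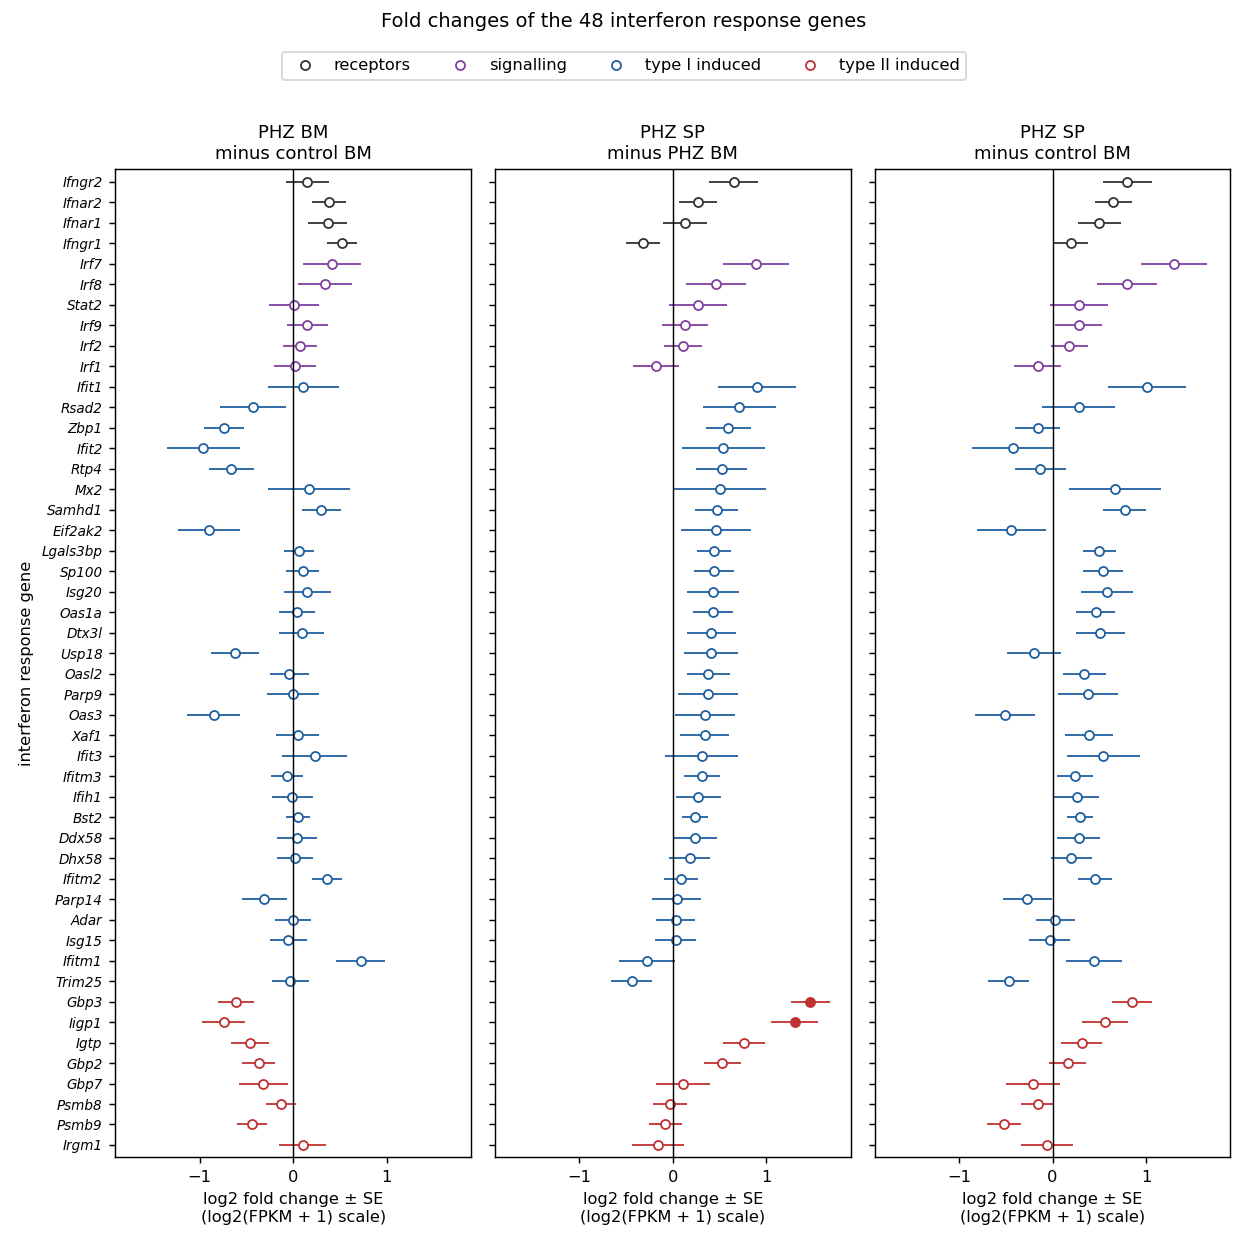
Log2 fold changes (points) with standard errors (lines) of the 48 genes in the 3 comparisons, on the log2(FPKM + 1) scale, colored by class and ordered within a class by the middle comparison. Filled points pass an adjusted p of 0.05. The filled points are Gbp3 (1.47) and Iigp1 (1.30) in PHZ SP HSC minus PHZ BM HSC, and 41 of 48 points of that comparison lie above 0.

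Gbp3 (Entrez gene 55932) rose the most. It was at 22.1 and 20.2 FPKM in PHZ SP HSC against 7.04, 6.52 and 7.51 FPKM in PHZ BM HSC, on 807 and 687 reads against 200 to 317 reads. The log2 fold change was 1.47 ± 0.21 (adjusted p = 0.0114). The call ended with either PHZ SP library left out (adjusted p 0.14 without replicate 1 and 0.0834 without replicate 2), without PHZ BM HSC replicate 1 (0.0631) or without replicate 2 (0.0608), while the fold change stayed between 1.41 and 1.53.

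Iigp1 (Entrez gene 60440) rose as well, from 5.76, 4.66 and 3.12 FPKM in PHZ BM HSC to 12.4 and 12.1 FPKM in PHZ SP HSC. This was a log2 difference of 1.30 ± 0.25, and its adjusted p of 0.0387 was close to the threshold. Leaving out a library of either group ended the call (adjusted p 0.0659 to 0.232), as did leaving out control BM HSC replicate 3 (0.0578), and the fold change stayed between 1.10 and 1.46. No filter on low values (0.0753) and a fit of only the 2 groups compared (0.0502) ended it too. Over control BM HSC, Iigp1 in PHZ SP HSC differed by 0.56 ± 0.25 (adjusted p = 0.312). For Gbp3 and Iigp1, the fall from control and the rise in spleen were both measured on the same PHZ BM libraries.

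Of the other type II induced genes, Igtp and Gbp2 were higher in spleen without overlap and the rest overlapped. Igtp, a further immunity-related GTPase, was at 27.7, 24.3 and 16.7 FPKM in PHZ BM HSC and 41.9 and 35.7 FPKM in PHZ SP HSC, above the 28.5, 32.0 and 32.9 FPKM of control BM HSC too. Its difference from PHZ BM HSC was 0.76 ± 0.22 (adjusted p = 0.148). Gbp2 had 34.3 and 34.5 FPKM in PHZ SP HSC and 23.9, 28.2 and 19.3 FPKM in PHZ BM HSC, again without overlap, but missed the threshold at 0.53 (adjusted p = 0.271).

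Gbp7 and Irgm1, which share these protein families and the ISRE core printed above, gave log2 fold changes of 0.11 and -0.16 with overlapping groups. The immunoproteasome subunits Psmb8 and Psmb9, which change the peptides cut for MHC class I, gave -0.03 and -0.08. Psmb9 was at 49.3, 40.7 and 47.7 FPKM in control BM HSC, 35.4, 31.9 and 33.1 FPKM in PHZ BM HSC and 36.5 and 27.4 FPKM in PHZ SP HSC, so both PHZ groups lay below every control library. Psmb8 overlapped in all 3 groups, with 75.3, 103 and 96.8 FPKM in control BM HSC, 88.1, 78.6 and 83.8 FPKM in PHZ BM HSC and 95.9 and 69.3 FPKM in PHZ SP HSC.

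**Figure D3:**
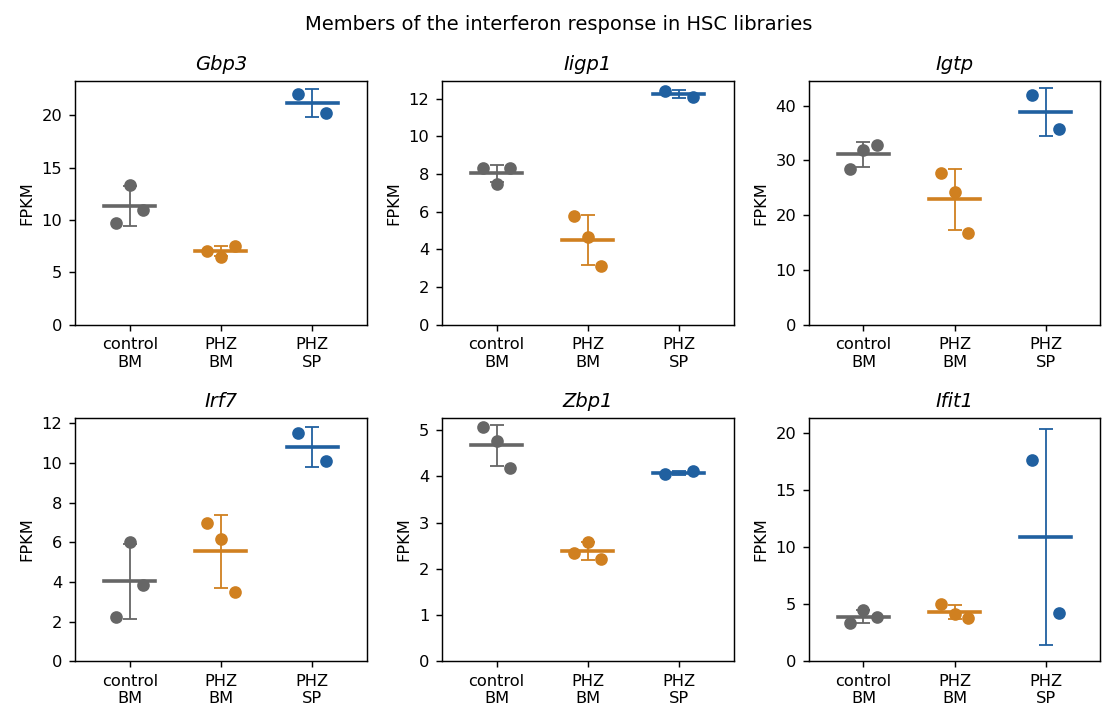
FPKM of 6 members in each library (points) with the group mean (horizontal bar) and SD (error bar) for control BM HSC, PHZ BM HSC and PHZ SP HSC. Gbp3, Iigp1 and Igtp have their lowest group in PHZ BM HSC and their highest in PHZ SP HSC, Zbp1 is lowest in PHZ BM HSC, and the high PHZ SP mean of Ifit1 comes from 1 library at 17.6 FPKM.

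Of the 30 type I induced members, 28 (93.3%) had a higher mean in spleen than in PHZ marrow, against 48.2% of all genes tested by sign. The class median was 0.38, with a range from -0.44 (Trim25) to 0.90 (Ifit1). For 13 members every PHZ SP library was above every PHZ BM library, against 17.4% of all genes, and 0 passed the adjusted test. Ifit1, an RNA-binding protein of the classical response, had the largest value of the class at 0.90 ± 0.42, but this came from 1 library. Its levels were 17.6 FPKM (522 reads) and 4.23 FPKM (117 reads) in the PHZ SP libraries and 3.35 to 4.99 FPKM in the 6 marrow libraries. Isg15, the ubiquitin-like modifier that is the standard marker of type I interferon action, stayed within 6.92 to 9.96 FPKM in all 8 libraries, with log2 fold changes between -0.05 and 0.03 in the 3 comparisons. Adar, an RNA-editing enzyme, also stayed in a narrow range, from 8.06 to 10.4 FPKM.

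Without PHZ SP HSC replicate 1, the type I induced median over PHZ BM HSC was 0.25 and that of the type II induced genes 0.48, and 36 members were higher and 11 lower of those still tested. The signalling median of 0.20, which includes Irf8 (0.46), became 0.03 without PHZ BM HSC replicate 3.

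The 7 members on the lower side in spleen included Trim25 and Ifngr1. Trim25, a ubiquitin ligase that activates the RNA sensor RIG-I, had 5.0 and 5.73 FPKM in PHZ SP HSC and 6.73 to 8.64 FPKM in the marrow libraries (-0.44 from PHZ BM HSC on the log2 scale, adjusted p = 0.417). Ifngr1 was lower in both PHZ SP libraries than in any PHZ BM library, at -0.32 ± 0.18 (adjusted p = 0.488), which became -0.18 when replicate 3 of PHZ BM HSC was left out. Its partner Ifngr2 had the opposite sign, with 8.43 and 6.91 FPKM in PHZ SP HSC against 4.13, 4.35 and 5.07 FPKM in PHZ BM HSC and differed by 0.65 ± 0.26 on the log2 scale (adjusted p = 0.296).

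The third comparison set PHZ SP HSC against the control marrow. Here 0 of the 48 members passed the test, where 0.758% of all genes did. By sign, 34 members were higher and 14 lower, or 70.8% higher against 49.9% of all genes tested. At an unadjusted p under 0.05, 12 members were higher and 1 lower (Psmb9), beside 8.65% and 7.14% of all genes. The groups did not overlap for 20 members as higher and 4 as lower, against 15.2% and 13.7% of all genes. Irf8 is among the 34, the 12 and the 20, and its log2 fold change of 0.8 enters the signalling median given next. The median log2 fold change was 0.57 for the receptors, 0.28 for signalling, 0.29 for the type I induced genes and 0.05 for the type II induced genes, the last of which became 0.13 or 0.24 with PHZ SP HSC replicate 1 or 2 left out.

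Gbp3 again had the smallest p, at 0.85 ± 0.21 with an adjusted p of 0.0908. Irf7, the factor that amplifies the type I response, followed with 2.24, 6.01 and 3.84 FPKM in control BM HSC, 6.98, 6.17 and 3.48 FPKM in PHZ BM HSC and 11.5 and 10.1 FPKM in PHZ SP HSC. Both spleen libraries were above all marrow libraries, while the marrow groups overlapped. Its difference from control was 1.30 ± 0.35 (adjusted p = 0.106). Samhd1, which breaks down deoxynucleotides and so starves viruses of them, measured 7.18, 6.16 and 4.94 FPKM in control BM HSC, 7.83, 8.39 and 6.89 FPKM in PHZ BM HSC and 9.99 and 12.2 FPKM in PHZ SP HSC, a difference of 0.77 ± 0.23 from control (adjusted p = 0.146).

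The receptor chains of type I interferon were above control in both PHZ groups by sign. Ifnar2 measured 11.4, 14.2 and 14.2 FPKM in control BM HSC, 18.9, 18.4 and 15.1 FPKM in PHZ BM HSC and 19.2 and 23.3 FPKM in PHZ SP HSC, with every PHZ library above every control library. The log2 fold change from control was 0.38 in PHZ BM HSC (adjusted p = 0.331) and 0.65 in PHZ SP HSC (adjusted p = 0.161). Ifnar1 measured 8.21, 5.44 and 6.48 FPKM, then 8.96, 8.53 and 9.07 FPKM, then 10.7 and 8.93 FPKM in the same order of groups. Its PHZ libraries were also all above control, by 0.37 and 0.50, without passing the test (adjusted p = 0.399 and 0.324). These comparisons share the control libraries.

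The remaining members named for their high levels mostly overlapped between the groups. Irf2, a repressor that opposes Irf1, was at 23.0, 18.4 and 16.9 FPKM in control BM HSC, 22.2, 21.3 and 17.5 FPKM in PHZ BM HSC and 21.2 and 22.8 FPKM in PHZ SP HSC. Irf9, the DNA-binding part of the type I complex, was at 9.02, 10.6 and 12.1 FPKM in control BM HSC, 12.9, 12.3 and 10.4 FPKM in PHZ BM HSC and 16.6 and 10.1 FPKM in PHZ SP HSC. Ifitm3 was at 795, 739 and 581 FPKM in control BM HSC, 598, 556 and 892 FPKM in PHZ BM HSC and 802 and 849 FPKM in PHZ SP HSC, so PHZ BM HSC held both extremes. Ifitm2 was at 283, 286 and 324 FPKM in control BM HSC, 321, 339 and 507 FPKM in PHZ BM HSC and 435 and 379 FPKM in PHZ SP HSC, the spleen values lying above all controls by 0.45 (adjusted p = 0.258).

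The classes were then followed library by library. For each gene the control mean was subtracted on the log2(FPKM + 1) scale and the median taken over the class. The type II induced median was -0.35, -0.36 and -0.49 in the PHZ BM libraries and 0.24 and 0.13 in the PHZ SP libraries. The type I induced median was 0.02, -0.01 and -0.09 in PHZ BM HSC and 0.32 and 0.22 in PHZ SP HSC. The gap of type I over type II was therefore 0.37, 0.35 and 0.40 in the PHZ BM libraries, 0.08 and 0.09 in the PHZ SP libraries and between -0.09 and 0.09 in the control libraries, which define 0 on this scale. The PHZ BM libraries did not overlap with the others in this gap, which rests on 8 type II genes and has no test. From the fitted fold changes, the class medians differed by 0.42 for PHZ BM HSC over control and by 0.06 for PHZ SP HSC over PHZ BM HSC, the latter turning to -0.23 without PHZ SP HSC replicate 1.

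**Figure D4:**
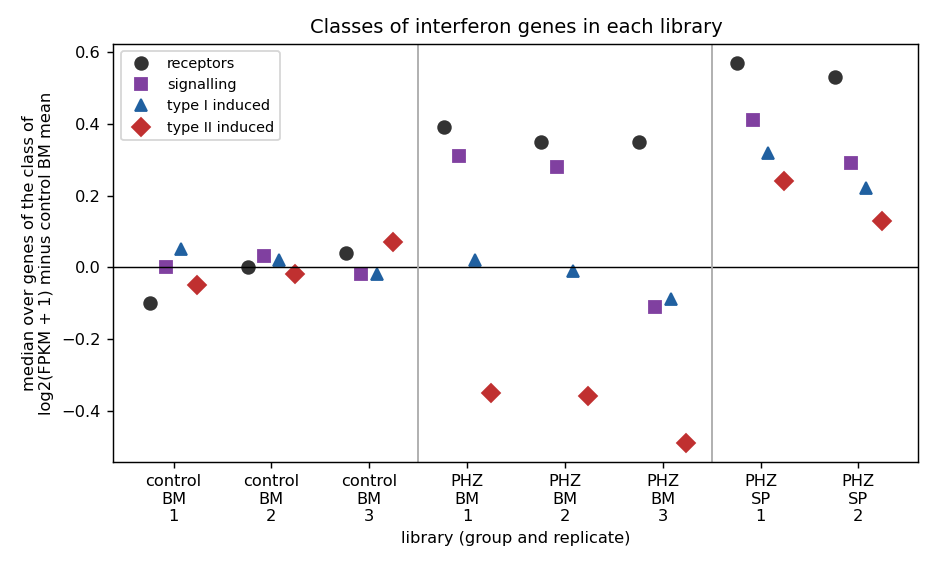
Median over the genes of each class of log2(FPKM + 1) minus the control BM HSC mean (y axis), in each of the 8 libraries (x axis, group and replicate). The type II induced medians lie between -0.49 and -0.35 in PHZ BM HSC and at 0.24 and 0.13 in PHZ SP HSC, while the receptor medians are above 0 in all 5 PHZ libraries.

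The rest of the pathway was read from a further list of 74 genes, of which 69 were tested. In PHZ BM HSC against control, 25 were higher and 44 lower, and 2 passed the test as higher and 0 as lower, a share near the 2.74% of all genes called. Socs3, an inhibitor of JAK kinases that many cytokines besides interferon induce, rose from 1.36, 2.38 and 0.945 FPKM in control BM HSC to 6.17, 9.88 and 25.7 FPKM in PHZ BM HSC and stood at 5.15 and 8.77 FPKM in PHZ SP HSC. The log2 fold change in marrow was 2.36 ± 0.43 (adjusted p = 0.0138), and the call ended without control BM HSC replicate 1 (0.0505) or 3 (0.0575), with no filter on low values (0.0517) and with limma voom on reads (0.0699). Ptpn6, the phosphatase SHP-1, rose from 66.2, 71.1 and 66.7 FPKM to 117, 121 and 93.0 FPKM, by 0.68 ± 0.14 (adjusted p = 0.0223), and lost its call without control BM HSC replicate 1 (0.0706) or 3 (0.064) and without PHZ BM HSC replicate 1 (0.119) or 2 (0.145).

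In PHZ SP HSC against PHZ BM HSC, 45 of the 69 genes were higher and 24 lower (65.2% higher, against 48.2% of all genes), and 1 passed the test, near the 0.978% of all genes called. Ifit1bl1, a relative of Ifit1, was at 5.86 and 6.80 FPKM (148 and 160 reads) in PHZ SP HSC and between 0 and 0.801 FPKM (0 to 22 reads) in the marrow libraries. It reached the filter on low values through the PHZ SP libraries alone, so it was tested because it is high there. With either PHZ SP library left out it could not be tested, and its values are given as a description. The same gene was the only 1 of the 69 past the threshold in PHZ SP HSC over control, where 37 were higher and 32 lower and 0.758% of all genes passed. Over PHZ BM HSC and over control the call ended with a pseudocount of 0.1 FPKM (adjusted p 0.12 and 0.0949) and with limma voom on reads (0.0601 and 0.0609), and over PHZ BM HSC also without PHZ BM HSC replicate 1 (0.0631). Its annotation overlaps that of Ifit1, so reads of the 2 genes may be shared and their values are uncertain. In all, 16 of the 48 members overlap another annotated gene, among them Parp9 with Dtx3l and Gbp3 with Gm40158, and their values carry the same doubt.

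Ly6a, which codes for the Sca-1 protein used to sort HSCs and is itself induced by interferon, stood at 126, 148 and 85.6 FPKM in control BM HSC, 105, 95.2 and 177 FPKM in PHZ BM HSC and 176 and 234 FPKM in PHZ SP HSC. Ly6a is named here after its values were seen.

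Other measured differences between spleen and marrow libraries stand beside these results. Klrb1c, an NK cell receptor gene, was at 14.7 and 18.4 FPKM in PHZ SP HSC and at 0.554 to 3.07 FPKM in marrow, while of the other NK and T cell genes Ncr1, Prf1, Cd3e and Cd3g stayed under 1 FPKM in every library, Cd3d was at 0 in control BM HSC and at most 1.23 FPKM elsewhere, Gzma reached 3.92 FPKM in PHZ SP HSC replicate 2 and Nkg7 was at 19.1 to 59.7 FPKM throughout. The 8 genes of the list summed to 20.5 to 61.2 FPKM in control BM HSC, 31.3 to 49.3 FPKM in PHZ BM HSC and 43.9 to 51.8 FPKM in PHZ SP HSC. S100a8 was at 586 and 786 FPKM in PHZ SP HSC against 144 to 341 FPKM in marrow. The plasmacytoid dendritic cell marker Siglech stayed under 1 FPKM throughout. The part of the neutrophil and erythroid marker levels in the spleen values of the interferon genes was not tested.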

How the data were processed

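RNA was measured by RNA-seq in sorted HSCs. Per the authors' methods, cDNA was amplified with SMART-Seq2, libraries were made with Nextera XT and reads were mapped to mm10 with STAR. The gene counter and strand handling are not given in the sources used here. The authors deposited FPKM values in 1 table per group, scaled separately. Further deposited tables hold the authors' DESeq2 comparisons and were not used. Marrow columns are named WBM where titles say BM HSC, and were taken as the sorted HSCs.

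Reads were worked back from the deposited FPKM values, and 108151 of 108151 values above 0 came out whole within 0.001. FPKM were put on 1 set of median-of-ratios factors over 8 libraries, which moved none by more than 1.06%. Genes at 1 FPKM or more in at least 2 libraries were tested with limma 3.58.1 (R 4.3.3; trend and robust options) on log2(FPKM + 1), two-sided, all 8 libraries in 1 fit, with Benjamini-Hochberg adjustment over the 11347 genes and a threshold of 0.05. Fold changes on this scale understate changes of low genes. The fit was run on simulated reads with changes placed in PHZ BM HSC only. Changes in the spleen group, and changes as small as most reported here, were not simulated. Groups came from sample titles.

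Members and lists were chosen with earlier results of these data known. Values in every library are given for members past the threshold in any comparison, the 3 of smallest p in each comparison and the 3 of highest mean FPKM in each class, and others by ranges, counts or single values chosen after they were seen. Gene names and coordinates are from RefSeq (GRCm38), with Python 3.11.15. Alternatives were another pseudocount, 2 other filters, 2 other scalings, a fit of 2 groups only, limma voom on reads, a replicate block and each library left out.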

Additional observations from a re-analysis of the deposited data

How the results depend on the processing

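The sign of the members held best in PHZ SP HSC over PHZ BM HSC, where 36 to 41 members were higher with each library left out in turn and 38 to 41 under the other settings. Calls in that comparison were fewer: 1 member (Gbp3) passed with no filter on low values, with only the 2 groups compared and with the replicate block, and 0 to 2 passed with a library left out. Iigp1 then had adjusted p-values of 0.0753, 0.0502 and 0.0736. Limma voom on reads called both genes there, 69 genes in all. In PHZ BM HSC over control, 0 members passed under every setting run. In PHZ SP HSC over control, 0 to 1 passed with a library left out (Ifit1, without PHZ SP HSC replicate 2). With either PHZ SP library left out, the lone spleen library is assumed to vary like the marrow groups, whose spread alone enters the fit. The replicate numbers did not pair the libraries, which share only a number (correlation of deviations between same-numbered libraries -0.008 to 0.06), and not every library correlated best with its own number. With the replicate block, calls went from 2 to 1 in PHZ SP HSC over PHZ BM HSC and stayed at 0 in the other comparisons.

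Scaling to equal sums gave medians over control of 0.31 for receptors and -0.05 for type I induced genes in PHZ BM HSC, and of 0.51 and 0.22 in PHZ SP HSC. A pseudocount of 0.1 FPKM gave 0.45 for type I induced genes in PHZ SP HSC over PHZ BM HSC and 0.62 for receptors over control. With a library left out, the PHZ BM HSC signalling median over control ranged from 0.05 to 0.29. In PHZ SP HSC over PHZ BM HSC the ranges were 0.03 to 0.29 (signalling), 0.25 to 0.42 (type I), 0.27 to 0.48 (type II) and -0.23 to 0.15 (type I minus type II). In PHZ SP HSC over control they were 0.22 to 0.32 (type I), 0.05 to 0.24 (type II) and 0.08 to 0.24 (type I minus type II). The cause was not tested. Median standard errors of the members were 0.22 to 0.24 on the log2 scale, which limits what 2 spleen libraries can show.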
